A study of Mus musculus with 5 samples.

Results

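Lysosomal enzymes, their activators and the proteins of the lysosomal membrane were followed in the aged mouse brain through 42 genes. The set was named gene by gene from what the proteins do. All 42 symbols matched a row of the deposited count table, which lists 47729 genes. The samples were brains of 5 male C57BL/6 mice, an inbred laboratory strain, aged 30 months and with no treatment or altered gene named in the labels. An Illumina multiplex kit for mRNA was used on total RNA, and the 5 libraries form 1 group. They are called mice 7, 8, 9, 10 and 11 after their sample numbers. The labels number samples and not animals, so the errors, given as SDs over the 5 samples, can hold technical spread.

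The lysosome is the acidic compartment in which cells break down proteins, glycans and lipids that arrive by endocytosis, phagocytosis and autophagy. Most of its enzymes are soluble hydrolases carried there by mannose 6-phosphate receptors, and its membrane holds heavily glycosylated proteins, a proton pump and transporters that export the products. Loss of a single enzyme causes storage of its substrate, and in many of these storage diseases neurons are among the first cells to suffer. Many lysosomal genes share a palindromic DNA element, bound by the transcription factor TFEB and its relatives, in their promoters.

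Promoter stretches are shown as a description. The element is already known from lysosomal genes, so its share in the set is no independent support for the choice of genes. RefSeq windows of 300 bases (250 before and 50 after a transcript start, build GRCm38.p6) were found for 38 of the 42 genes, with none for Asah1, Ctsb, Ctsh and Npc1. Capitals mark the 6-base core of the TFEB element together with the flanking T or A where it is present, and each stretch lies before the start in both RefSeq and GENCODE M21. The stretch of Lamp1 lies on the plus strand at chr8:13159080-13159160, Gla on the minus strand at chrX:134601174-134601252, Gaa on the plus strand at chr11:119267803-119267848 and Glb1 on the plus strand at chr9:114401010-114401055.
Lamp1: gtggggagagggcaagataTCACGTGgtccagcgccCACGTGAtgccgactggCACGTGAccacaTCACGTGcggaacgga
Gla: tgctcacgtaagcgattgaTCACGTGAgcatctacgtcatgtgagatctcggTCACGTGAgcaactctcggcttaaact
Gaa: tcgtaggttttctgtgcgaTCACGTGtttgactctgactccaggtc
Glb1: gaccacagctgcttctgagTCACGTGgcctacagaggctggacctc

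Lamp1 carried 4 copies of the core within the 61 bases before its start. Gla carried 2 copies of the full 8-base form, and Gaa and Glb1 carried 1 copy each of the 7-base form. The core CACGTG, which reads the same on both strands, was present in 14 of the 38 genes of the set with a window (36.8%). It was found in 2187 of 27025 genes with windows of the same length (8.09%), counted whether or not they were expressed in these brains. TCACGTG, searched on both strands and holding the core, was found in 12 of the 38 (31.6%), against 4.29% of all genes. TCACGTGA, a palindrome that holds both shorter forms, was found in 5 of the 38 (13.2%), namely Cln3, Ctsa, Ctsd, Gla and Mcoln1, against 1.12% of all genes. Of 48 other lysosomal genes outside the set, 32 had a window and 6 of these held the core (18.8%). The same 6 held TCACGTG, and 4 held TCACGTGA (12.5%), a share close to that of the set. A match describes letters in the window and was not tested for binding.

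**Figure D1:**
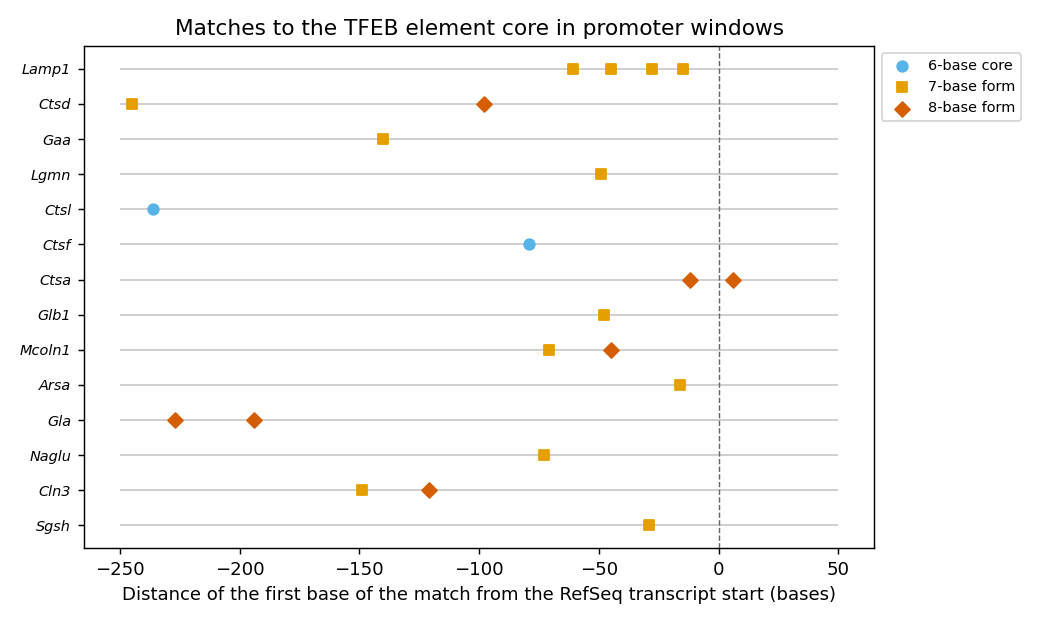
Position of each match to the TFEB element in the windows of the 14 genes that held one, in bases from the RefSeq start of the window that holds it; circles mark the 6-base core, squares the 7-base form and diamonds the 8-base form. Lamp1 has 4 matches between 61 and 15 bases before its start, and the matches of Cln3, Ctsa, Ctsl, Lgmn and Naglu lie in windows that are not at the outermost start of the gene.

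Genes with and without the core had medians of level and spread close to each other. Levels between genes are given per transcript length in RPKM, counts divided by gene length and by the library's total, recomputed with each library's own total. The median over the 14 genes with the core was 18.4 RPKM, and over the 24 without it 16.7 RPKM. The median SD over the mice of log2 CPM (counts scaled to the library's total, on a log2 scale) was 0.22 in both. Among genes with the core 10 of 14 had their highest log2 CPM in mouse 11, against 11 of 24 without it and 37.6% of all genes, and their median GC content was 53.1% against 49.2%. No test was made of these differences.

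The libraries held between 15392006 and 18723390 counts. Mouse 11 stood apart from the other libraries. The biological coefficient of variation over the 16318 genes that averaged at least 10 counts was 23.4% with all 5 libraries and 16.7% without mouse 11. The deviation of a gene in mouse 11 rose with its GC content: with the genes split into 4 equal groups by GC, the group medians ran from -0.41 at the lowest GC to 0.46 at the highest on the log2 scale. In mouse 7 they ran from 0.30 to -0.13. Values without mouse 11 are therefore given beside the results in which it was far from the others.

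All 42 genes were expressed, with mean counts of at least 45.6 per library and no library below 25 counts. Together they took 0.601% of the counts in mouse 7, 0.675% in mouse 8, 0.668% in mouse 9, 0.702% in mouse 10 and 0.757% in mouse 11. The share averaged 0.680% ± 0.0566 (SD, n = 5), or 0.661% without mouse 11, and the highest was 1.26 times the lowest. Wilson 95% intervals, which cover counting error only, ran from 0.597% to 0.604% in mouse 7 and from 0.753% to 0.761% in mouse 11. The 5 most abundant genes, Psap, Lamp1, Ids, Ctsd and Ctsb, held 63.6% of these counts. Without Psap the share was 0.503% ± 0.0410.

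The median of the 42 mean levels was 15.7 RPKM, against 4.59 RPKM over all genes tested and 5.85 RPKM over the 14249 protein-coding ones. Without mouse 11 the medians were 15.7 and 4.62 RPKM. In all, 32 of the 42 lay above the median of all genes, and 12 (28.6%) lay in the top 10% of genes, above 30.7 RPKM. The range was wide: 5 genes had at least 100 RPKM, 22 had 10 to 100 and 15 had less than 10, and Psap was 358 times as high as Sgsh. Of the 41 pairs of neighbours in this order, 38 had ranges over the mice that overlapped, so the order is a gradient with few gaps. The gaps lay between Psap and Lamp1, between Ctss and Lgmn, where the lowest value of 61.8 RPKM met the highest of 60.6 RPKM, and between Ctns and Gusb. Reads of overlapping genes cannot be told apart where the genes share a strand or, as the strand setting of the counting is not known, lie on opposite strands. Ctsd shares 34.4% of its exon bases with Gm49369 on its own strand, and on the other strand Sgsh shares 21.6% with Card14, Arsa 18.8% with an antisense gene and Hexa 12.8% with Tmem202.

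**Figure D2:**
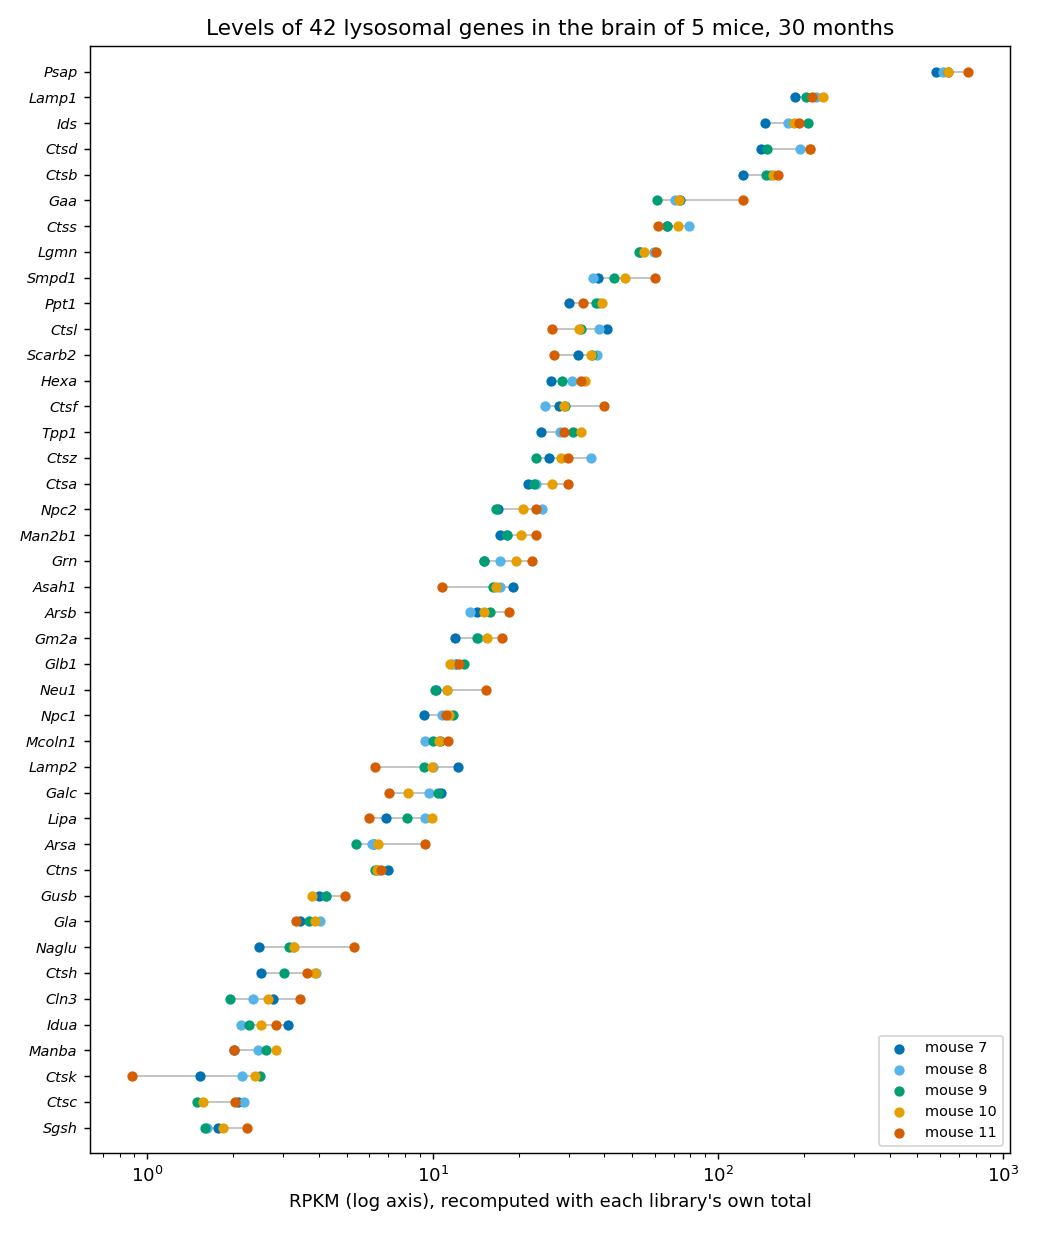
Level of each of the 42 genes in every mouse, in RPKM on a log axis, ordered by mean; each point is a mouse and each grey line runs from its lowest to its highest value. Psap lies between 581 and 752 RPKM, above all the others, and Ctsk, with 0.883 RPKM in mouse 11, has the widest spread.

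Cathepsins, the lysosomal proteases, were led by the aspartic protease Ctsd and the cysteine protease Ctsb. Values are listed in the order of mice 7, 8, 9, 10 and 11 from here on. Ctsd had 142, 194, 148, 210 and 209 RPKM. Mice 7 and 9 were low and the other 3 were close together, and the mean was 181 ± 33.1 RPKM. Ctsb had 122, 152, 147, 156 and 162 RPKM, with mouse 7 the lowest, and a mean of 148 ± 15.5 RPKM. Reads of Ctsb may include some of Fdft1, which overlaps 12.8% of its exon bases on the other strand. Ctsd exceeded Ctsb in 5 of 5 mice, but by only 0.27 ± 0.17 on the log2 scale of RPKM + 1, with 0.01 in mouse 9.

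Ctss, a cysteine protease that microglia and macrophages use in antigen presentation, had 66.1, 78.9, 66.1, 72.5 and 61.8 RPKM. Lgmn, the asparagine-specific protease legumain that matures other cathepsins, had 53.1, 59.6, 52.8, 54.9 and 60.6 RPKM. Both were even across mice, with SDs of 0.11 on the log2 CPM scale. Ctsl, a broad cysteine protease, had 40.7, 38.3, 33.0, 32.6 and 26.2 RPKM, with mouse 11 the lowest and mouse 7 the highest. Its antisense neighbour Gm47123 overlaps 26.8% of its exon bases, and its level falls from 34.2 to 10.4 RPKM when the GENCODE M21 exon length replaces the length that the authors' RPKM imply. The ratio of Ctsl to Ctsb on the log2 scale was -1.56, -1.96, -2.12, -2.23 and -2.58, below 0 in every mouse and lowest in mouse 11. Its mean was -2.09, against -1.97 without mouse 11 and -3.37 with M21 exon lengths.

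Ctsf, another cysteine protease, had 27.7, 24.8, 29.0, 28.7 and 39.7 RPKM. Mouse 11 stood apart, and the mean was 30.0 ± 5.66 with it and 27.6 ± 1.92 without it (11.8 RPKM over all mice with the M21 exon length). Ctsz, a carboxypeptidase, averaged 28.5 ± 4.85 RPKM, and Ctsa, the serine carboxypeptidase also called protective protein, averaged 24.6 ± 3.35 RPKM. Ctsa overlaps Pltp on the other strand in 10.5% of its exon bases. Ctsh, an aminopeptidase, averaged 3.38 ± 0.603 RPKM.

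The lowest cathepsins were Ctsc, which activates serine proteases of immune cells, and Ctsk, best known as the collagenase of osteoclasts. Ctsc had 2.08, 2.18, 1.49, 1.57 and 2.02 RPKM. Ctsk had 1.53, 2.15, 2.49, 2.39 and 0.883 RPKM, from only 36, 50, 59, 58 and 25 counts. Its SD of 0.58 on the log2 CPM scale was the largest of the set, and mouse 11 was the lowest. The mean was 1.89 ± 0.675 RPKM with mouse 11 and 2.14 ± 0.431 without it. Ctss exceeded Ctsk in 5 of 5 mice, by 4.63 ± 0.30 on the log2 scale of RPKM + 1 (4.52 without mouse 11). Cst3, the secreted cathepsin inhibitor cystatin C and no part of the set, exceeded Ctsb in 5 of 5 mice, by 1.85 ± 0.21 on that scale. The 11 proteases held 24.9% of the counts of the set, and their median level was 30.0 RPKM.

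Enzymes that remove sugars were led by Gaa, the acid alpha-glucosidase that degrades glycogen. Gaa had 73.3, 70.8, 61.2, 72.8 and 122 RPKM. Mouse 11 lay far above the other 4, which did not exceed 73.3 RPKM. The mean was 80.1 ± 24.1 RPKM with mouse 11 and 69.5 ± 5.66 without it. Gla, the alpha-galactosidase that is deficient in Fabry disease, had 3.43, 4.04, 3.68, 3.86 and 3.32 RPKM, with one of the 3 smallest SDs of the set (0.10 on the log2 CPM scale). Gaa exceeded Gla by 4.08 ± 0.44 on the log2 scale in 5 of 5 mice, by 4.83 in mouse 11 and by 3.89 on average without it.

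Hexa, the alpha subunit of beta-hexosaminidase that is deficient in Tay-Sachs disease, averaged 30.5 ± 3.36 RPKM. Gm2a, the activator that presents GM2 ganglioside to this enzyme, had 11.9985, 14.4, 14.3, 15.5 and 17.5 RPKM. Hexa exceeded Gm2a in a narrow range, by 1.01 ± 0.09 on the log2 scale.

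Neu1, a sialidase, had 10.3, 11.2, 10.2, 11.2 and 15.4 RPKM. Mouse 11 stood apart, and without it the mean was 10.7 ± 0.535 in place of 11.7 ± 2.12 RPKM. Glb1, the beta-galactosidase whose activity is stained as a sign of senescence, had 12.1, 11.7, 12.9, 11.5 and 12.4 RPKM. It varied least among the glycosidases, with an SD of 0.09 on the log2 CPM scale. The proteins of Neu1, Glb1 and Ctsa form a complex in which Ctsa stabilises the other two. Ctsa exceeded Neu1 by 1.02 ± 0.09 on the log2 scale, and Glb1 lay below Ctsa by a difference of -0.96 ± 0.20. Both directions held in 5 of 5 mice.

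Of the mannosidases, Man2b1 averaged 19.4 ± 2.35 RPKM (10.5 with the M21 exon length) and Manba had 2.01, 2.45, 2.60, 2.82 and 2.01 RPKM. The ratio of Manba to Man2b1 was between 0.0872 and 0.143 in every mouse. On the log2 scale it was -2.59 ± 0.23, or -1.76 with M21 exon lengths. Gusb, the beta-glucuronidase often used as a reference gene, averaged 4.23 ± 0.435 RPKM. The 8 glycosidases had a median level of 11.9 RPKM and held 9.56% of the counts of the set.

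Psap, on chr10:60277627-60302597 of GRCm38 (plus strand), was the most abundant gene of the set. Its product prosaposin is cut into the saposins, which help enzymes reach sphingolipids, and is also secreted. Psap had 581, 614, 642, 641 and 752 RPKM, with mouse 11 the highest, and a mean of 646 ± 64.1 RPKM (619.6 without mouse 11). It held from 25.0% to 27.3% of the counts of the set and ranked 16 among all genes tested. Psap exceeded Gm2a by 5.37 ± 0.08 on the log2 scale in 5 of 5 mice, the smallest SD among the 20 ratios examined. Grn, the gene of progranulin, which binds prosaposin and is cut into granulins in the lysosome, had 15.1, 17.3, 15.2, 19.6 and 22.4 RPKM. Psap exceeded it by 5.11 ± 0.14.

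Smpd1, the acid sphingomyelinase, had 38.1, 36.5, 43.3, 47.1 and 60.2 RPKM. Mouse 11 was the highest, and the mean was 45.0 ± 9.47 RPKM (41.2 ± 4.86 without mouse 11). Asah1, the acid ceramidase that acts on its product, had 19.1, 17.3, 16.3, 16.6 and 10.7 RPKM, with mouse 11 the lowest. Their log2 ratio, Asah1 over Smpd1, was -0.96, -1.04, -1.36, -1.45 and -2.38. It was below 0 in each mouse, with a mean of -1.44 ± 0.57, or -1.20 without mouse 11. Asah1 has a GC content of 43.5% and Smpd1 of 55.7%. With a GC and length trend removed from each library, the log2 CPM deviation of Asah1 in mouse 11 went from -0.49 to -0.13. That of Smpd1 went from 0.50 to 0.14. Asah1 was still lowest and Smpd1 still highest in mouse 11. The part of GC content in this ratio was not tested.

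Arsa and Galc act in turn on the myelin lipids sulfatide and galactosylceramide. Galc, deficient in Krabbe disease, had 10.7, 9.72, 10.5, 8.19 and 7.06 RPKM. Arsa, deficient in metachromatic leukodystrophy, had 6.20, 6.13, 5.38, 6.44 and 9.36 RPKM. Mouse 11 stood apart in Arsa, with a mean of 6.70 ± 1.54 RPKM with it and 6.04 ± 0.458 without it. Galc was higher than Arsa in mice 7 to 10 and lower in mouse 11, with a mean log2 ratio of 0.42 ± 0.48 (0.61 without mouse 11; exact two-sided sign-flip permutation p = 0.188, n = 5). This direction rests on the gene length: with the GENCODE M21 exon length, 3.89 times as long for Galc, the mean of Galc was 2.37 RPKM and the log2 ratio was -1.18. The 6 sphingolipid genes held 30.3% of the counts of the set.

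Enzymes of glycosaminoglycan breakdown spanned from the top to the bottom of the order. Ids, iduronate sulfatase, had 146, 176, 206, 185 and 193 RPKM, with mouse 7 the lowest, and a mean of 181 ± 22.7 RPKM. Idua, the iduronidase that acts after it, had 3.12, 2.13, 2.26, 2.51 and 2.83 RPKM. Ids exceeded Idua by 5.67 ± 0.31 on the log2 scale, the largest of the 20 ratios, and from 46.6 to 91.2 times in RPKM. Mouse 7 had the smallest ratio.

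Arsb, a sulfatase of dermatan and chondroitin sulfate, averaged 15.5 ± 1.92 RPKM (10.2 with the M21 exon length), and a non-coding gene with 0 counts overlaps 32.3% of its exon bases. Naglu and Sgsh remove sugars and sulfate from heparan sulfate. Naglu had 2.47, 3.25, 3.15, 3.26 and 5.28 RPKM. Mouse 11 stood apart, mouse 7 was the lowest, and the mean was 3.48 ± 1.06 with mouse 11 and 3.03 ± 0.379 without it. Sgsh, the lowest gene of the set, had 1.76, 1.62, 1.59, 1.84 and 2.23 RPKM. It lay below Naglu in 5 of 5 mice, with a log2 ratio of -0.65 ± 0.23. The median level of the 5 genes was 3.48 RPKM.

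Ppt1 and Tpp1, whose losses cause infantile and late infantile forms of neuronal ceroid lipofuscinosis, differed little from each other at the gene lengths used. Ppt1, a palmitoyl-protein thioesterase, had 30.2, 38.2, 37.5, 39.3 and 33.7 RPKM, with mouse 7 the lowest. Tpp1, a tripeptidyl peptidase, averaged 29.0 ± 3.40 RPKM. Ppt1 exceeded Tpp1 by 0.30 ± 0.09 on the log2 scale in 5 of 5 mice. With M21 exon lengths Tpp1 averaged 19.6 RPKM and the log2 ratio was 0.84 ± 0.09. Ppt1, with 10677 counts in all, overlaps Cap1, with 23458, on the other strand in 3.51% of its exon bases. Lipa, the acid lipase of cholesteryl esters and triglycerides, averaged 8.07 ± 1.66 RPKM, or 3.53 RPKM with the M21 exon length.

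Lamp1 and Lamp2 are the main glycoproteins of the lysosomal membrane, and 1 form of Lamp2 is the receptor of chaperone-mediated autophagy. Lamp1, on chr8:13159161-13175338 (plus strand), had 186, 220, 203, 233 and 214 RPKM. The mice lay close together around 211 ± 17.9 RPKM. Lamp2, on chrX:38401357-38456454 (minus strand), had 12.2, 10.04, 9.32, 9.98 and 6.27 RPKM. Mouse 11 was the lowest and mouse 7 the highest, so that the log2 ratio of Lamp1 to Lamp2 ran from 3.82 in mouse 7 to 4.89 in mouse 11. The mean ratio was 4.35 ± 0.38, or 4.22 without mouse 11, and the mean of Lamp2 was 9.57 ± 2.15 RPKM with it and 10.4 ± 1.27 without it.

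Scarb2, the lysosomal membrane protein also called LIMP-2, averaged 33.7 ± 4.42 RPKM. Npc1 and Npc2, which together move cholesterol out of the lysosome, averaged 10.9 ± 0.942 and 20.3 ± 3.40 RPKM. Npc1 lay below Npc2 in 5 of 5 mice, with a log2 ratio of -0.83 ± 0.23. With M21 exon lengths Npc2 averaged 12.2 RPKM and the ratio was -0.21 ± 0.23, below 0 in 4 of 5 mice and 0.14 in mouse 9. Mcoln1, a calcium channel of the membrane, averaged 10.4 ± 0.721 RPKM, and Cln3, deficient in juvenile neuronal ceroid lipofuscinosis, averaged 2.62 ± 0.546 RPKM. Ctns, the cystine exporter, had 6.96, 6.44, 6.27, 6.38 and 6.60 RPKM. Its SD of 0.07 on the log2 CPM scale was the smallest of the set. The 8 genes of this class had a median level of 10.6 RPKM.

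Of the 20 ratios between partners, 19 kept 1 direction in 5 of 5 mice. For each of these the exact two-sided sign-flip permutation test gave p = 0.0625, the smallest that 5 mice allow, and 0.0658 after Benjamini-Hochberg adjustment over the 20 pairs, so the design cannot reach 0.05. Only Galc to Arsa changed direction between mice.

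**Figure D3:**
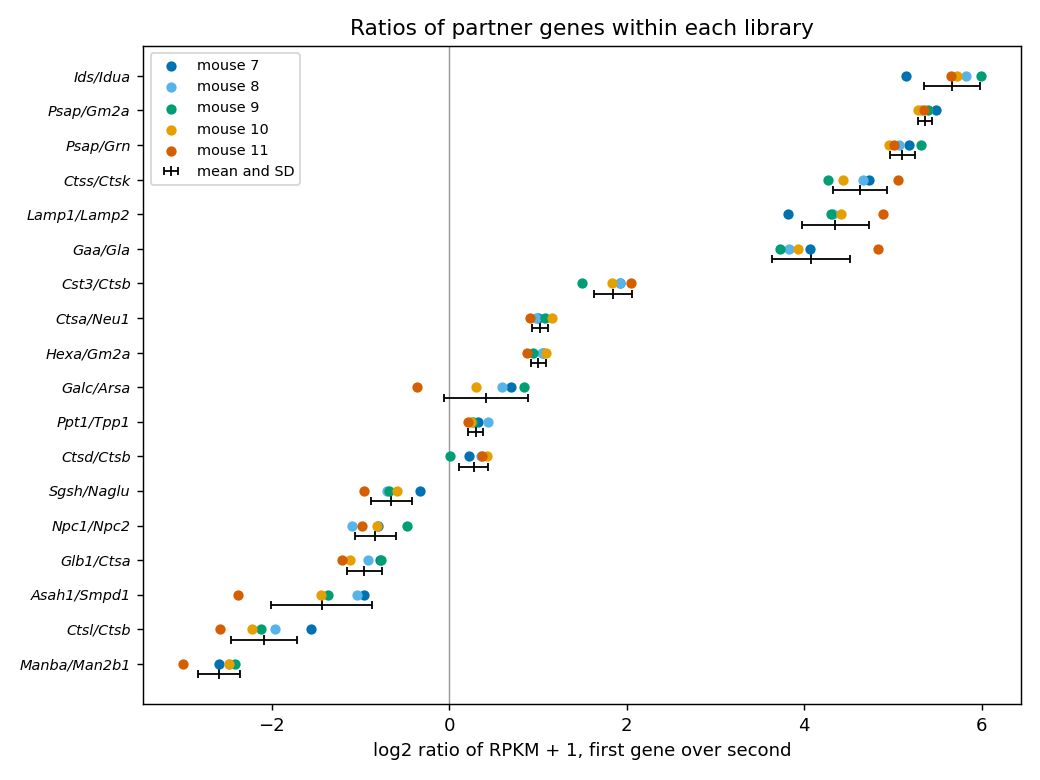
Log2 ratio of RPKM + 1 within each library for 18 of the 20 pairs of partner genes; points are mice and black bars show the mean with its SD. The points of each pair lie on 1 side of 0 except for Galc/Arsa, where mouse 11 is at -0.36, and Psap/Gm2a has the narrowest spread (5.37 ± 0.08).

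The mice differed little in these genes. The highest value over the lowest was between 1.11 (Ctns) and 2.82 (Ctsk) in RPKM, with a median of 1.43. For 5 of the 42, Gaa, Ctsf, Neu1, Arsa and Naglu, mouse 11 was set apart above the others by Dixon's criterion, as it was for 6.49% of all genes. The ratio was under 1.5 for 27 genes and at least 2 for Ctsk and Naglu only. Without mouse 11 it was at most 1.63, with a median of 1.27, and 39 genes were under 1.5. The median SD of log2 CPM was 0.22, against 0.30 over all genes tested, and 35 of the 42 lay below that median. Among genes averaging 500 counts or more the medians were closer, 0.19 for the 28 genes of the set and 0.21 for all genes. Without mouse 11, with no such minimum of 500, they were 0.16 and 0.20.

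A test of whether a gene varied more between mice than other genes at its level called 0 of the 42. In this edgeR quasi-likelihood fit with Benjamini-Hochberg adjustment, 0% of the 16318 genes were called at an adjusted p under 0.05. At an unadjusted p under 0.05 it gave 0 of the 42 and 4.82% of all genes (786 genes). The reference distribution was fitted to these same genes, so the share of all genes largely follows from the fit. The smallest adjusted p of any gene in this edgeR test was 0.585, so 0 calls say little about the set. Dispersion outliers in DESeq2 were 0 of the 42 and 0.3% of all genes (49 genes). The smallest unadjusted p in the set was 0.0625 for Gaa, with an adjusted p of 0.981 in the edgeR test.

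Across the set mouse 11 was high and mouse 7 low. The mean deviation of the 42 genes from their own means on the log2 CPM scale was -0.12 in mouse 7, -0.0030 in mouse 8, -0.04 in mouse 9, 0.04 in mouse 10 and 0.14 in mouse 11. Over all genes the means were 0.05, 0.02, -0.03, -0.03 and -0.01. The highest value fell in mouse 11 for 22 of the 42 genes, against 37.6% of all genes. The lowest fell in mouse 7 for 20, against 25.4% of all genes, and in mouse 11 for 8, against 32.7%. With library size alone as the scaling, mouse 11 was highest for 18 genes of the set and mouse 7 lowest for 16. The shares of all genes given above belong to the main scaling and are no background for these counts. The mean deviation with library size alone was 0.07 in mouse 11, -0.10 in mouse 7 and 0.02 in mouse 8. With the main TMM scaling and without mouse 11, the mean deviation in mouse 7 was -0.09. In bulk tissue fewer cells of a type and less RNA per cell cannot be told apart.

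GC content moved with this pattern, more so in mouse 11 than in mouse 7. Among the 21 genes with GC from 50.9% to 59.8%, including Gaa, Naglu, Arsa, Ctsf, Smpd1 and Neu1, 17 were highest and 0 lowest in mouse 11. Among the 21 with GC from 38.3% to 50.8%, 5 were highest there. The 8 genes lowest in mouse 11, which were Ctss, Ctsl, Scarb2, Asah1, Lamp2, Galc, Lipa and Ctsk, all belonged to this second group. The median deviations in mouse 11 were 0.32 and -0.02 on the log2 scale for the groups of higher and lower GC. After a trend on GC content and length was removed from each library, they were 0.06 and 0.14. In mouse 7 the medians for higher and lower GC were -0.17 and -0.13 before the removal, and -0.05 and -0.19 after it.

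Removing the trend lowered the SD of 30 of the 42 genes and raised that of 12, among them Ids, Npc1, Ctsc, Ppt1, Lipa and Ctss. The deviation of Gaa in mouse 11 went from 0.72 to 0.15, that of Naglu from 0.71 to 0.11 and that of Lamp2 from -0.52 to -0.01. Ctsk kept its low value in mouse 11, with -0.91 before and -0.88 after. Ids, with a GC content of 41.4%, moved away from 0, from 0.16 to 0.58 in mouse 11 and from -0.33 to -0.65 in mouse 7. The median SD of the 42 genes fell from 0.22 to 0.15, and that of all genes was 0.23 after the removal. Of the 42 genes, 15 (35.7%) were then highest in mouse 11, near the 30.2% of all genes. Mouse 10 was then highest for 13 (31.0%), against 16.3% of all genes. The lowest fell in mouse 7 for 21 (50%), against 30.3%. The mean deviation of the set was -0.13 in mouse 7 and 0.09 in mouse 11 after the removal.

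**Figure D4:**
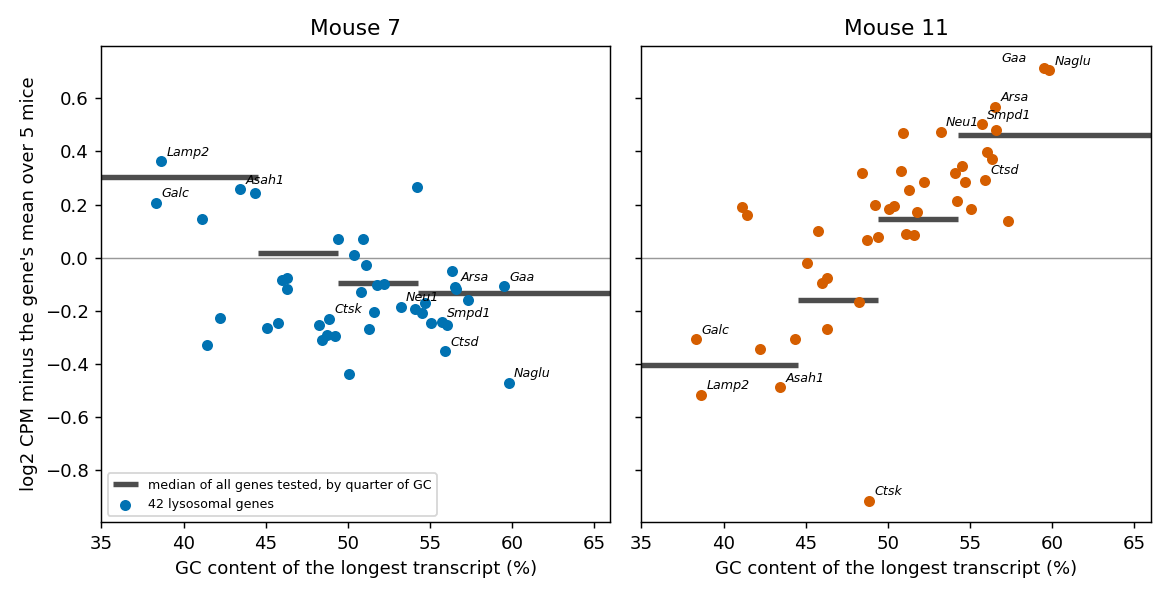
Deviation of each of the 42 genes from its own mean (log2 CPM) in mouse 7 and mouse 11, against the GC content of its longest transcript in percent; bars show the median of all genes tested in each of 4 equal groups by GC and run past the axis at both ends. In mouse 11 the points tend to rise with GC, up to 0.72 for Gaa, but not all follow the bars. Ctsk at -0.91 lies far below them, and Ids at 0.16 and Ctsc at 0.19 lie above them at low GC. In mouse 7 most points lie below 0.

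Markers of microglia, the phagocytes of the brain, also differed between these libraries. The summed level of 11 microglial markers was 202, 249, 207, 263 and 300 RPKM, with the most in mouse 11 and the least in mouse 7, and all 11 were detected. The 5 perivascular macrophage markers summed to 4.61, 4.59, 4.26, 6.30 and 3.94 RPKM. The 6 neuronal markers summed to 805, 772, 786, 739 and 606 RPKM. For the 7 astrocyte markers the sums were 596, 705, 644, 691 and 539 RPKM. Mouse 11 had the smallest sum of each, but single markers differed in direction. In log2 CPM mouse 11 was highest for 2 and lowest for 3 of the neuronal markers. It was highest for 3 and lowest for 2 of the astrocyte markers. Before any trend was removed, the mean deviations in mouse 11 were -0.05 for the neuronal and -0.01 for the astrocyte markers. After removal of the GC and length trend, the mean deviation of the microglial markers was 0.05 on the log2 scale in mouse 11 and -0.05 in mouse 7. It was 0.16 and -0.19 for the neuronal markers and 0.12 and -0.20 for the astrocyte markers, so on that scale the lower value of each pair was that of mouse 7. Sums were 703 to 964 RPKM for 7 oligodendrocyte markers, 442 to 599 RPKM for 5 of the choroid plexus, 28.3 to 45.4 RPKM for 5 of the endothelium and 35.1 to 89.2 RPKM for 4 of blood cells. None of the markers was at 0 in all libraries, and 0 were called by the edgeR test or as DESeq2 outliers. Unadjusted p values lay under 0.05 for C1qa and C1qc of microglia, Aqp4 of astrocytes, Cldn5 and Slco1a4 of endothelium, and Hbb-bs and S100a8 of blood cells. Their part in the levels of the lysosomal genes was not tested.

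Other genes of the pathway gave a similar range. Of 48 lysosomal genes outside the set, 46 reached a mean count of 10, with Ctse and Ctsw below it. In the edgeR test 0 of the 46 were called and 1 (Tmem106b, a lysosomal membrane protein) had an unadjusted p under 0.05; DESeq2 outliers were 0. Their median level was 11.9 RPKM with a median SD of 0.23. The highest was Cst3 at 540 ± 102 RPKM and the lowest Dnase2a, a lysosomal nuclease, at 0.820 ± 0.185 RPKM. Mouse 11 held the highest log2 CPM of 25 of the 46 (54.3%), against 37.6% of all genes. Mouse 7 held the lowest of 19 (41.3%), against 25.4%. With the GC and length trend removed, mouse 11 was highest for 19 (41.3%), against 30.2% of all genes. Mouse 7 was then lowest for 20 (43.5%), against 30.3%.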

How the data were processed

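Brain RNA of 5 mice in 1 group was analysed. The authors deposited whole-number counts and RPKM values per Ensembl gene. The submitters' processing notes name the GRCm38 build and the tools featureCounts 1.4.6-p4, STAR 2.4.1d and CASAVA 1.7. For the annotation release and the strand setting, the sources used here give nothing. The RPKM the authors deposited fit library totals recycled down the table: the lengths they imply were within 1% between libraries for 12729 of 12729 genes with recycled totals and for 0 with each library's own. RPKM were therefore recomputed with each library's own total and the implied length, and deposited values are 0.821 to 1.22 times the recomputed ones. Identifiers were matched to GENCODE M21 (47310 genes, with 0.0469% of counts unmatched), which gave coordinates, exon lengths and GC content. No near-identical copies outside overlapping genes were found at 95% identity over 200 bases.

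To test for variation between mice, edgeR 4.0.16 (R 4.3.3) was used for fitting an intercept with TMM scaling to genes averaging 10 counts or more. The quasi-dispersion of a gene was read against a robust F fit along average log2 CPM, made in limma 3.58.1. P-values were adjusted over all genes by Benjamini-Hochberg, with 0.05 as the threshold. DESeq2 1.42.0 dispersion outliers were the alternative. The steps were tested on simulated data. Log2 CPM used a prior count of 1 and log2 ratios a pseudocount of 1. The GC and length trend was fitted with splines of 5 degrees of freedom. Depth was 15392006 to 18723390 counts, and intervals cover counting error only. Other scalings, filters, prior counts, pseudocounts and lengths were tried, and each mouse was left out in turn. The minimum of 500 counts, the M21 levels, the combined removal of the trend and mouse 11, levels and shares without a mouse, and the share without Psap were chosen after seeing the data.

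All genes of the set are described by role. Values in every mouse are given for the 10 most and 4 least abundant, the 5 with the largest and 3 with the smallest SD, and those with 1 mouse set apart (gap over 0.71 of the range, Dixon's criterion). Ratios were taken for 20 pairs, of which 2 are not reported here. For the other lysosomal genes counts and the highest and lowest genes are given, and for the cell type lists counts and summed levels. Values in every mouse of Ctsl, Asah1, Galc, Gm2a, Grn, Ids, Idua and Lamp2 and genes named for their GC were added after their values were seen. Members, lists and pairs were chosen with earlier results of these data known.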

Additional observations from a re-analysis of the deposited data

Results flagged for a closer look

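In 5 of the 42 genes the value of mouse 11 lay apart from the other 4 mice, with a gap to the nearest above 0.71 of the whole range; no other mouse met this mark, and chance gives a set-apart value in about 1 in 20 groups. Over all 16318 genes tested, 6.49% had mouse 11 set apart above the others in this way. Mouse 11 had 122 RPKM of Gaa, the acid alpha-glucosidase, and 39.7 RPKM of the cysteine protease Ctsf. It had 15.4 RPKM of the sialidase Neu1, 9.36 RPKM of the sulfatase Arsa and 5.28 RPKM of Naglu, an enzyme of heparan sulfate. All 5 were above the other mice and all 5 have a GC content of at least 53.2%. Of the 20 ratios, 0 had a mouse set apart. Gaa to Gla and Manba to Man2b1 came close, each with a gap of 0.69 of the range for mouse 11.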

How the results depend on the processing

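Of the values of the main results under other settings, 272 kept their direction or call or moved by less than the replicate spread (1.5 times for counts), 4 moved and 1 reversed. No setting called any of the 42 genes variable. Over all genes the calls were 230 without a filter on low counts and 49 as DESeq2 dispersion outliers, against 0; the cause was not tested. Without a filter the median SD of all genes was 0.46. The genes lowest in mouse 7 numbered 12 at a mean count of at least 500, where 28 of the 42 genes are left. No share of all genes at that minimum stands beside this count. The median SD of the set was 0.13 with the GC and length trend removed and mouse 11 left out. The log2 ratio of Galc to Arsa was -1.18 with the GENCODE M21 exon length, which is 3.89 times as long for Galc.

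Leaving out each mouse in turn gave a median SD from 0.16 to 0.24, with 21 to 25 genes highest in mouse 11 and 21 to 24 lowest in mouse 7. No share of all genes stands beside these counts, and with fewer libraries each mouse holds more of the extremes. With the trend removed and mouse 11 left out, 23 of the 42 were lowest in mouse 7, against 35.1% of all genes. No mean partner ratio changed direction when a mouse was left out. The M21 length changed the rank of 31 genes by up to 13 places and moved 12 levels by over 1 SD, among them Ctsf to 11.8, Npc2 to 12.2, Lipa to 3.53 and Man2b1 to 10.5 RPKM. With M21 lengths the log2 ratio of Npc1 to Npc2 was -0.21, with mouse 9 above 0, of Ppt1 to Tpp1 0.84 and of Ctsd to Ctsb 0.72. The deposited RPKM changed 4 ranks by 1 place. No paired analysis was possible because the samples form a single group. Levels of Ctsk, from 25 to 59 counts, are the least precise.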
